A study of Mus musculus with 6 samples.

Results

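Both arms of miR-149 and the 5p arm of miR-129 are described here, in pancreas of mice with caerulein and LPS pancreatitis and of their saline controls. The 3 members, mmu-miR-149-5p, mmu-miR-149-3p and mmu-miR-129-5p, written below without the species prefix, were taken by name from a table of 1414 miRNA rows. They had been selected on their read counts in these same 6 libraries, for a lower level in the model group, so their difference between the groups is given as a description, with no test. The label of lowered miRNAs held for 2 of the 3 in these counts: miR-149-3p had 1 count over the model libraries and 2 over the control libraries, which shows no direction.

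The model group was C57BL/6 mice given 7 intraperitoneal injections at intervals of 1 hour. The agent was caerulein, which acts on cholecystokinin receptors and overstimulates acinar cells, at a dose the labels give as 50 mg/kg. Caerulein doses in mice are usually stated in micrograms per kg, so the unit of that label is uncertain. Lipopolysaccharide (LPS), a bacterial cell wall component, was added to the last injection, and the treatment label also names saline. The control group was C57BL/6 mice given saline on the same schedule. All mice weighed 22 to 25 g, and pancreas was taken 24 hours after the first injection. Each group had 3 small RNA libraries, numbered 56, 57 and 59 in the model and 43, 44 and 45 in the control. Neither agent was given without the other, and what each contributes cannot be told apart. Whether the libraries are separate mice is not in the labels, and the p-values refer to the spread among these libraries, part of which may be technical.

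A miRNA hairpin is cut into a 5p and a 3p arm, and usually one of them is loaded into Argonaute as the guide while the other is discarded. Bases 2 to 8 of the guide, the seed, pair with target mRNAs and lower their stability or translation. miR-149 is made from an intron of Gpc1, which encodes the cell surface heparan sulphate proteoglycan glypican 1. In mouse macrophages miR-149-5p has been linked to repression of the Toll-like receptor adaptor MyD88, and in human tumour cells the 3p arm to the p53 response. miR-129-5p is enriched in brain, where in rodent neurons it represses the potassium channel mRNA Kcna1, and human tumour cell work names the transcription factor SOX4 and the cell cycle kinase CDK6 as its targets.

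The mature sequences show that the members share no seed. They are given 5′ to 3′ with the seed in capitals, together with the 3p arms of both miR-129 hairpins and with miR-129b-3p, which is read from the opposite strand and returns below. All but the sequence of miR-129-1-3p, which is that of the deposited table, are RefSeq sequences on GRCm38.p6.
miR-149-5p: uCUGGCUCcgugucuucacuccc
miR-149-3p: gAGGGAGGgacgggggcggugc
miR-129-5p: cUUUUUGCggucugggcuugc
miR-129-1-3p: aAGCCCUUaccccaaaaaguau
miR-129-2-3p: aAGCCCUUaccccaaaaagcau
miR-129b-3p: cAAGCCCAgaccgcaaaaagauu

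No other row of the table had the seed of miR-129-5p. The seed of miR-149-5p recurred in 1 predicted row with a single count in all libraries together. That of miR-149-3p recurred in 3 rows, the known miR-1943-5p and miR-6967-5p and 1 predicted, which held 17 counts in all and at most 4 in any library. No row sharing a member's seed was therefore abundant enough to be tested. The 3p arms of the miR-129 hairpins shared a seed with each other and differed by the single substitution U20C, counted from 1 at the 5′ end with the base of miR-129-1-3p first. The G-rich miR-149-3p had a GC content of 81.8%, a level that 11 of 1104 known rows (0.996%) reached or passed, against 60.9% in miR-149-5p and 57.1% in miR-129-5p.

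In GRCm38 the hairpin Mir149 lies on chromosome 1, plus strand, from 92850378 to 92850443, within an intron of the protein-coding Gpc1 on the same strand. The 5p sequence of miR-129 is encoded at 2 places, which the counts cannot tell apart, although the table lists it under mir-129-2 alone. Mir129-1 lies on chromosome 6, plus strand, from 29022619 to 29022691, in an exon of the long noncoding RNA Gm3294. Mir129-2 lies on chromosome 2, minus strand, from 94241364 to 94241453, in an intron of the long noncoding RNA Mir670hg. All 65 bases of a further annotated hairpin, Mir129b, lie opposite Mir129-2 on the plus strand, from 94241378 to 94241442. The 4 hairpins are shown with the arms counted here in capitals.
Mir149: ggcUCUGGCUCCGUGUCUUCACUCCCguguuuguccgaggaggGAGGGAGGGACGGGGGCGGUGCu
Mir129-1: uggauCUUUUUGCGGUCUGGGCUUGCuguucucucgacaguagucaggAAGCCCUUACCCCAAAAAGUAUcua
Mir129-2: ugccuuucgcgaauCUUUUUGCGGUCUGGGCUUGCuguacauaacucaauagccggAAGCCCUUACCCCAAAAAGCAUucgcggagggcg
Mir129b: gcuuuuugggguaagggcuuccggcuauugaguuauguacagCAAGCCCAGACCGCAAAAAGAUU

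Library totals ran from 2489009 to 3006220 counts in the model and from 1943693 to 2629801 in the control group. Counts were compared with edgeR's quasi-likelihood test over the 499 rows that passed a filter on low counts, and p-values were adjusted over all of them by Benjamini and Hochberg's method with a threshold of 0.05. Levels are TMM-scaled CPM, counts divided by library totals adjusted with TMM factors and put on the usual CPM scale. Of the rows tested, 5 were higher in the model (1.00%) and 1 was lower (0.200%). The lower one was a predicted miRNA on chromosome X, at 48.7 ± 10.6 CPM in model and 193 ± 63.1 CPM in control libraries (SD, n = 3 each). Of the 3 members, 2 passed the filter and 0 were among these calls, and as the same contrast had chosen them, nothing is read from that count.

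The guide arm miR-149-5p was at 83.4, 68.1 and 73.5 TMM-scaled CPM in model libraries 56, 57 and 59, against 166, 323 and 176 in control libraries 43, 44 and 45. The model libraries were close together and all lay below the lowest control, while control library 44 stood well above the other controls. These levels rest on 225, 222 and 246 counts in the model and on 431, 664 and 294 counts in the control libraries. The means were 75.0 ± 7.75 CPM in model and 222 ± 88.0 CPM in control libraries (SD, n = 3 each). The fitted log2 fold change was -1.56 (SE 0.32), a model level 0.338 times that of the control, and without control library 44 it was -1.20. Known rows tested numbered 447, and by log2 fold change miR-149-5p was the 6th lowest of them.

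miR-129-5p, a scarcer miRNA, was at 25.9, 18.7 and 12.9 CPM in model libraries 56, 57 and 59, against 37.7, 64.3 and 77.4 in control libraries 43, 44 and 45. Here too the groups did not overlap, but the closest pair, model library 56 and control library 43, came nearer to each other than for miR-149-5p. The libraries held 70, 61 and 43 counts in the model and 98, 132 and 129 in the control. A count of 43 has a 95% exact Poisson interval of 31.1 to 57.9, which covers counting error only. The means were 19.2 ± 6.56 CPM in model and 59.8 ± 20.2 CPM in control libraries (SD, n = 3 each). The log2 fold change was -1.64 (SE 0.38), or 0.321 times the control level, the 4th lowest among known rows.

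**Figure D1:**
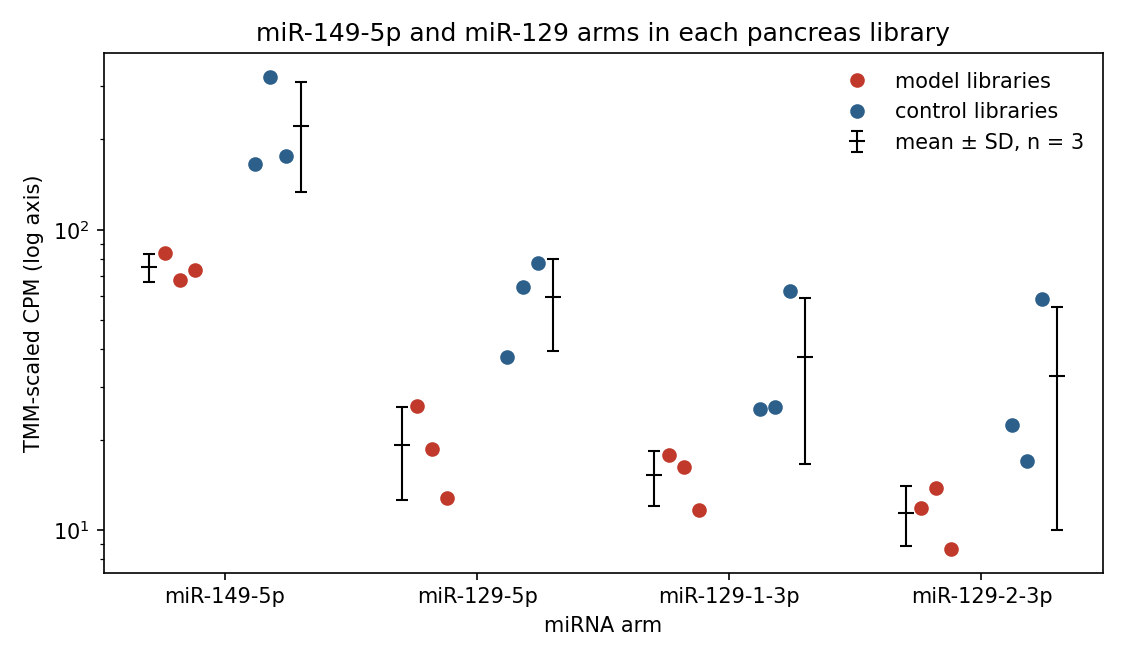
TMM-scaled CPM on a log axis for miR-149-5p, miR-129-5p and both miR-129 3p arms, with 1 point per library, model (red) left of control (blue), and bars for mean ± SD (n = 3). For all 4 arms the model libraries lie below the control libraries, and control library 45 stands apart in both 3p arms with 62.4 and 58.8 CPM.

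Over all rows tested, the model libraries lay wholly below the controls in 16.6% and wholly above them in 14.4%. With the RPM values deposited by the authors, which rest on far larger library totals, the model libraries lay wholly below the controls in only 1.20% of rows, 6 in number, and both tested members were among them. In RPM, miR-149-5p was at 9.25, 10.1 and 10.1 in model libraries, against 15.5, 24.3 and 10.9 in control libraries, and miR-129-5p at 2.88, 2.77 and 1.77 in model libraries, against 3.52, 4.84 and 4.76 in control libraries. The gap between model and control was thus narrow on that scale, with control library 45 almost level with the model for miR-149-5p. Since that difference chose the members, the count is a description of them and no support for it.

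The choice of scaling moved the log2 fold changes of the median row and of the members by similar amounts. Relative to TMM, the median log2 fold change over all tested rows shifted by 0.29 with total counts alone, by -0.29 with upper quartile factors and by 0.79 with the authors' library totals. The log2 fold change of miR-149-5p was -1.25, -1.86 and -0.78 in that order, and that of miR-129-5p was -1.33, -1.90 and -0.82. Set against the median row, the value stood at -1.57 with TMM and -1.58 with the authors' totals for miR-149-5p and at -1.64 and -1.62 for miR-129-5p. A change of scaling shifts all rows by nearly the same amount, so these values could hardly differ and do not show which scaling is right. The table's counts made up 10.2% to 13.6% of the authors' totals in model libraries and 7.17% to 9.43% in control libraries, and the sources used here do not say what those totals count.

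**Figure D2:**
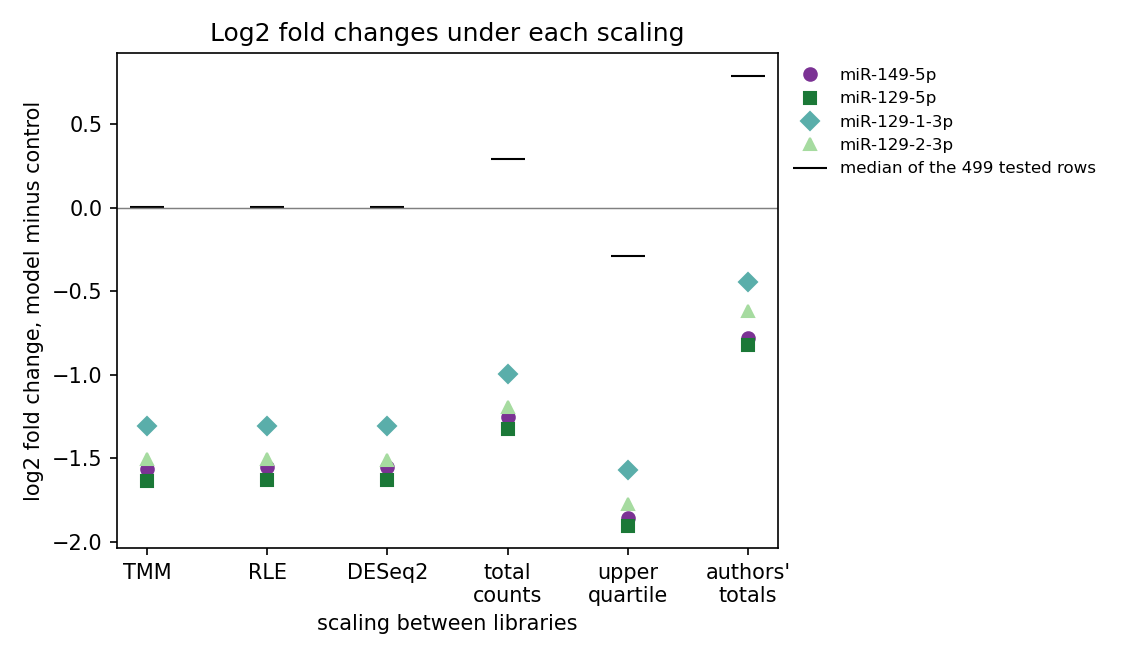
Log2 fold change (model minus control) of miR-149-5p and the miR-129 arms under 6 ways of scaling the libraries, with a black bar for the median of all tested rows. The 4 arms and the median move together, and miR-129-5p runs from -1.90 with upper quartile factors to -0.82 with the authors' totals.

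The 3p arm of miR-149 was next to absent in both groups. It had 1, 0 and 0 counts in model libraries 56, 57 and 59, and 0, 2 and 0 counts in control libraries 43, 44 and 45. Pooled within groups, the 3p arm took 1 of 694 miR-149 counts in the model (0.144%, 95% Clopper-Pearson interval 0.00365% to 0.800%) and 2 of 1391 in the control (0.144%, 0.0174% to 0.518%). In single libraries with no 3p count, a count of 0, taken as at most 3 counts of the library's miR-149 total, allowed a 3p share of up to 1.22% to 1.35% in the model and of up to 0.696% to 1.02% in the control. The exact two-sided 95% limits for the same libraries, which the plot of 3p shares draws, were 1.49% to 1.65% in the model and 0.852% to 1.25% in the control. The log2 ratio of 5p to 3p counts, with 1 count added to each arm, was 7.52 ± 0.61 in model and 8.25 ± 0.48 in control libraries (SD, n = 3 each), but with so few 3p counts it mainly follows the 5p count. A difference in arm use between the groups was not detectable at this depth.

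The miR-129 hairpins behaved otherwise, with 3p counts at least as common as 5p counts in most libraries. The 3p arms together took 53.3%, 61.6% and 61.3% of miR-129 counts in model libraries 56, 57 and 59, against 55.9%, 40.0% and 61.0% in control libraries 43, 44 and 45. The groups overlapped, and control library 44 alone had fewer 3p than 5p counts. Means were 58.7% ± 4.69 in model and 52.3% ± 10.96 in control libraries (SD, n = 3 each).

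**Figure D3:**
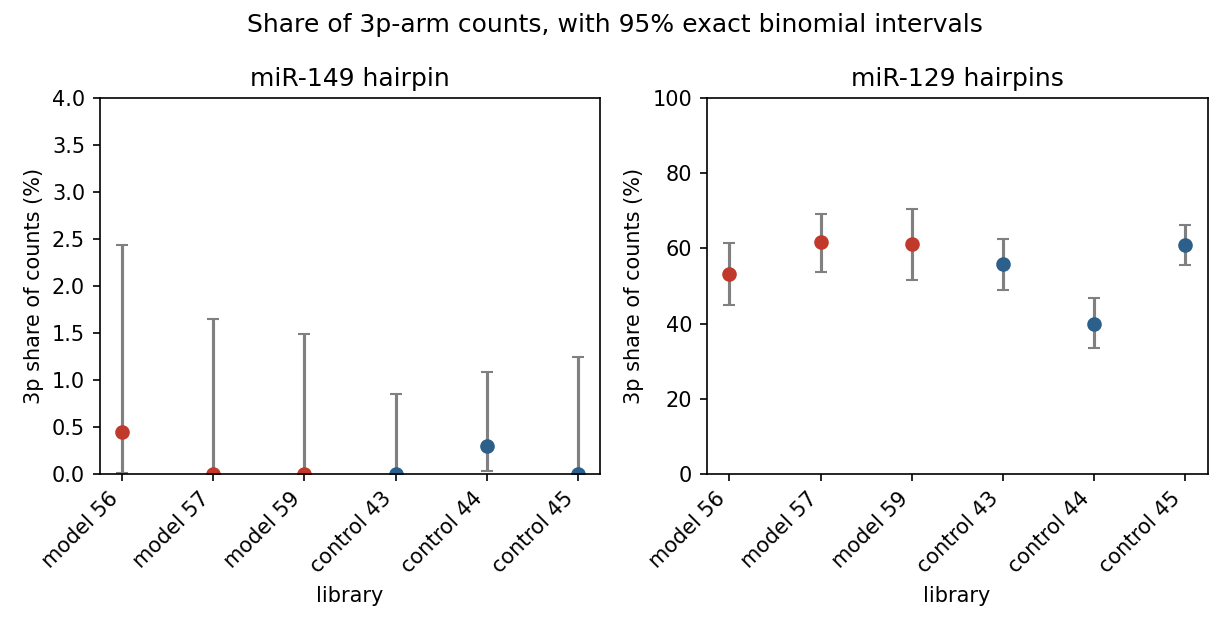
Share of 3p counts (%) among all counts of the miR-149 hairpin (left, axis to 4%) and of both miR-129 hairpins (right, axis to 100%) in each library, model in red and control in blue, with 95% exact binomial intervals. The observed miR-149 share stays below 0.5% in every library, with an upper limit of up to 2.44% (model library 56), while the miR-129 share lies between 40.0% and 61.6%.

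The 3p arms of miR-129 are not members, so they could be tested. miR-129-1-3p was at 17.8, 16.3 and 11.7 CPM in model libraries 56, 57 and 59, against 25.4, 25.8 and 62.4 in control libraries 43, 44 and 45. Its log2 fold change was -1.31 (SE 0.43), and it did not pass over all rows, where edgeR gave an adjusted p of 0.127. miR-129-2-3p was at 11.9, 13.8 and 8.67 CPM in model libraries, against 22.3, 17.0 and 58.8 in control libraries, which gave a log2 fold change of -1.5 (SE 0.50) and an adjusted p of 0.137 with edgeR. In both arms every model library lay below every control, as was the case in 16.6% of all tested rows. Control library 45 stood far above the other controls. Without that library the log2 fold changes were -0.78 and -0.81, and in the authors' RPM the groups overlapped for both arms. Both arms passed with DESeq2 (adjusted p = 0.0489 for each) and with no filter on low counts (edgeR adjusted p = 0.021 and 0.0081). Those settings called 22 and 35 rows lower over all rows, against 1 in the main fit. With upper quartile factors, which called 39 rows lower, neither arm passed (edgeR adjusted p = 0.055 and 0.056). Both arms come from the same hairpins as miR-129-5p and so are not independent of it.

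More 3p counts were assigned to Mir129-1 than to Mir129-2 in every library, but within each library the 95% exact Poisson intervals of both counts overlapped. The ratio of miR-129-1-3p to miR-129-2-3p was 1.5, 1.18 and 1.34 in model libraries 56, 57 and 59, and 1.14, 1.51 and 1.06 in control libraries 43, 44 and 45. Over the 6 libraries the mean log2 ratio was 0.35 ± 0.22 (SD). This ratio was chosen after the values were seen and is given with no test, and the arms differ at the 20th base alone.

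Opposite Mir129-2, the antisense arm miR-129b-3p showed the reverse distribution at a very low level. It had 8, 5 and 7 counts in model libraries 56, 57 and 59, and 0 counts in each of control libraries 43, 44 and 45. Its 23 bases contain a run of 20 that is fully complementary to miR-129-5p, whose length is 21 bases. Against a floor of 3 counts over the control group, its model level was 4.53-fold higher, a value that leaves out the counting error of its few model counts. A predicted row listed on chromosome 6, whose 22 bases are miR-129b-3p without its last base, had 2, 1 and 1 counts in the model and 0 in each control library. That shorter sequence occurs in the reverse complement of both Mir129-1 and Mir129-2, while the full miR-129b-3p occurs only opposite Mir129-2. Neither row passed the filter on low counts, and both were singled out after their values were seen.

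**Figure D4:**
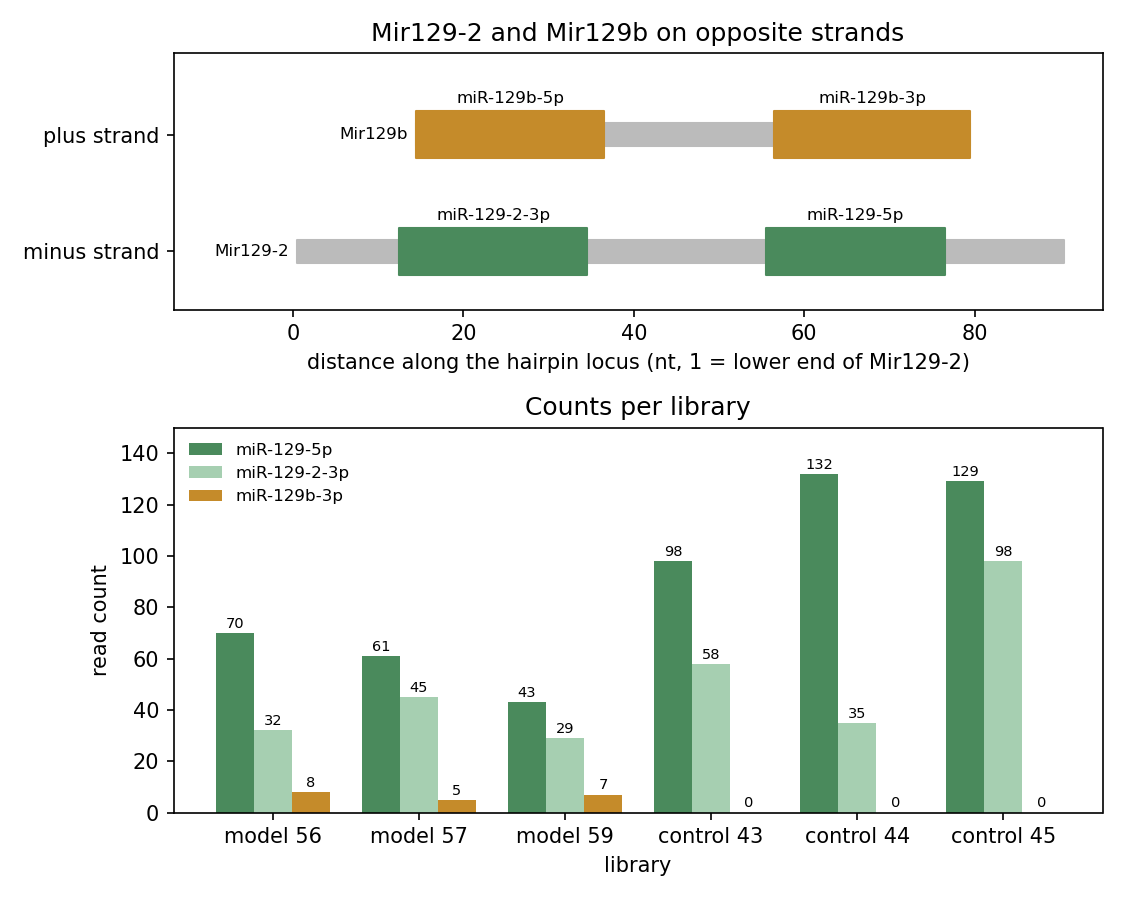
Top: Mir129-2 and Mir129b drawn to scale on opposite strands, in nt from the lower end of Mir129-2, with hairpins in grey and mature arms coloured. Bottom: read counts per library, model left of control; miR-129b-3p has 5 to 8 counts in model libraries and 0 in controls, while miR-129-5p, which Mir129-1 also encodes, has 43 to 70 counts in model and 98 to 132 in control libraries.

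In the order of levels miR-149-5p stood above miR-129-5p in both groups, and miR-149-3p was too scarce to be ranked. miR-149-5p ranked 221st of 447 known tested rows by mean CPM in the model group and 150th in the control group. In the control group its neighbours were miR-190a-5p above (229.9 ± 11.4 CPM) and miR-141-5p below (220.0 ± 27.7 CPM), and both lay within its own spread of 88.0. miR-129-5p ranked 318th in the model and 235th in the control group, where let-7e-3p (60.7 ± 24.4 CPM) and miR-203-5p (58.96 ± 9.35 CPM) stood next to it, also within its spread. Levels of different miRNAs are compared here as counted.

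The spread between replicates differed between the members. The coefficient of variation of miR-149-5p was 10.3% in model and 39.7% in control libraries, where the median over the 85 tested rows within 2-fold of its level was 21.7% in model and 23.2% in control. For miR-129-5p it was 34.2% in model and 33.8% in control libraries, against 22.3% in both groups over 104 rows. The control libraries did not rank alike for the members: library 44 was highest for miR-149-5p and library 45 for miR-129-5p and its 3p partners.

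Profiles most like those of the members were found by the root mean square difference between log2(CPM + 1) values over the 6 libraries, each profile centred on its own mean. For miR-149-5p these were let-7e-3p (0.205), miR-700-3p (0.252) and miR-744-3p (0.258), where the median over 445 rows was 0.907. let-7e-3p was at 22.6, 23.0 and 27.5 CPM in model libraries 56, 57 and 59, against 49.7, 88.6 and 43.8 in control libraries 43, 44 and 45, so it shared the peak in control library 44. For miR-129-5p they were miR-496a-3p (0.367), its hairpin partner miR-129-1-3p (0.384) and miR-181c-3p (0.426), with a median of 0.987 over all rows. miR-149-5p and miR-129-5p differed from each other by 0.425. These profiles include the difference between the groups, for which both members had been chosen. A small distance between them is therefore no support for a shared course over the libraries. The rows named as most alike also had negative log2 fold changes, from -1.62 to -1.24.

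The 6 lists of cell type miRNAs that follow give the setting of these levels. In bulk tissue, fewer cells of a type and less RNA per cell cannot be told apart. All 7 acinar miRNAs were tested and present in every library, with miR-148a-3p highest over the 6 libraries together and miR-216a-5p about level with it in the model group, and their summed level was 49178 to 52464 CPM in model and 58140 to 95083 CPM in control libraries. Of the acinar miRNAs 0 passed in either direction, all 7 had negative log2 fold changes and their median was -0.48, beside a median of 0.005 over all tested rows. The acinar median was -0.22 without control library 45, the library with the highest acinar sum, and 0.41 with the authors' totals. The 7 epithelial miRNAs, led by miR-200c-3p, summed to 74778 to 81890 CPM in model and 90629 to 107638 CPM in control libraries. They had 0 calls and a median of -0.31, which was 0.003 with unadjusted totals and 0.52 with those of the authors. The median over all tested rows was itself 0.29 with unadjusted totals and 0.79 with those of the authors. In both settings the acinar and epithelial medians lay below it. In TMM-scaled CPM the model sums of both lists lay below every control sum. For the acinar sum this rests on the TMM factors, without which the groups overlap. Those factors were 0.863 in control library 44 and 1.085 to 1.161 in the model libraries. Some single miRNAs of both lists overlapped even with them, among them miR-217-5p and miR-141-3p. The part of these lists in the members' levels was not tested.

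The neural list, from the tissue where miR-129 is best known, had a median near that of all rows. Of 10 neural miRNAs 9 were in the table and tested, 0 passed in either direction, 6 had positive log2 fold changes, and the median was 0.03, beside 0.005 over all rows; it was 0.33 with unadjusted totals, -0.26 with upper quartile factors and 0.80 with the authors' totals, which moved the median of all rows by similar amounts. The neural sum was 4856 to 6009 CPM in model and 5680 to 6720 CPM in control libraries, with overlap, and its most abundant miRNA over the 6 libraries together was miR-153-3p (log2 fold change -0.43, SE 0.18, edgeR adjusted p = 0.209). Of 8 islet endocrine miRNAs 0 passed, with a median of 0.07 (0.85 with the authors' totals, and -0.08 to 0.15 when a library was left out). Their sum was 57107 to 68933 CPM in model and 73372 to 99723 CPM in control libraries. The groups did not overlap on this scale, but without the TMM factors they did. The sum was led by miR-375-3p at 30851 to 40024 CPM in model and 50725 to 69441 CPM in control libraries. The log2 fold change of miR-375-3p was -0.73 (SE 0.15), just short of the threshold with edgeR and TMM (adjusted p = 0.0611), and it passed with DESeq2 (adjusted p = 0.0454), with RLE factors, with upper quartile factors, with no filter and without control library 43. It did not pass without any other library (edgeR adjusted p = 0.073 to 0.209) or with unadjusted totals, and with the authors' totals it was 0.085 (edgeR adjusted p = 0.749).

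Of 9 leukocyte miRNAs 1 was higher, myeloid miR-223-3p (log2 fold change 2.75, SE 0.31, edgeR adjusted p = 0.0077), 8 had positive log2 fold changes and the median was 0.99. Without control library 43 that median was 1.63, and without model library 57 it was 0.64. The leukocyte sum was 7733 to 17720 CPM in model and 6762 to 10102 CPM in control libraries, with overlap. The highest over the 6 libraries together was lymphocyte-enriched miR-150-5p (log2 fold change -0.35, SE 0.47, edgeR adjusted p = 0.735), while miR-146a-5p had the higher mean in the model group. Of 4 erythroid miRNAs 0 passed, with a median of -0.22 (0.075 with total counts alone, where that of all tested rows was 0.29). The erythroid median was -0.49 without model library 56 and -0.02 without model library 57. It was -0.04 without model library 59 and again without control library 45. The erythroid sum was 7110 to 12098 CPM in model and 10652 to 13635 CPM in control libraries, led by red cell miR-451a.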

How the data were processed

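Small RNA of 18 to 30 nt from pancreas was sequenced in 3 model and 3 control libraries, with molecular identifiers in the adapters, per the labels' protocols. The authors deposited 1 table with read counts per mature miRNA arm and, per the file headers, a second set of columns read here as RPM. The library totals behind the RPM, 22055639 to 27876715, were recovered from rows of at least 100 counts. The submitters' processing notes name Bowtie2 and GRCm38.p6 with no role. No source used here says whether counts were collapsed on identifiers.

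Counts were fitted with edgeR 4.0.16 in R 4.3.3: filterByExpr (minimum count 10, minimum total 15), TMM, robust dispersions and the robust quasi-likelihood test, model against control, adjusted over 499 rows (447 known, 52 predicted). Each SE given is the absolute log2 fold change divided by the square root of the quasi-likelihood F statistic, and for the members it is given as description only. The fit was tested on simulated data. Alternatives were 4 other scalings, no filter, DESeq2 1.42.0, non-robust estimates, identical sequences kept once, and each library left out. Named beside the members are their hairpin partners, rows with a shared seed, the 3 most alike profiles for each tested member, neighbours in level, and the most abundant and the called rows of 6 lists; the antisense rows were added after their values were seen. The members and lists were chosen with earlier results of these data known. Replicate numbers are not shared between groups. Loci were read from GENCODE M21 and RefSeq on GRCm38.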

Additional observations from a re-analysis of the deposited data

Results flagged for a closer look

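A signal appeared in a row that the comparison of groups left out as too scarce. miR-129b-3p, encoded opposite Mir129-2, had 20 counts over the model libraries, against 0 over the control libraries. Of all 1414 rows of the table it was the single one with 0 counts in each control and at least 5 counts in each model library, and 0 rows showed the opposite. The cut of 5 was this row's own lowest model count, so its standing alone at that cut is no support for it. The opposite pattern was also harder to reach, since control library totals were mostly lower. The row was singled out for that pattern, and no test is given.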

How the results depend on the processing

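No paired analysis was possible because the groups share no replicate number. Rows higher and lower in the model numbered 5 and 1 with TMM, 7 and 8 with RLE factors, 6 and 39 with upper quartile factors, 17 and 1 with unadjusted totals, 124 and 2 with the totals of the authors, 23 and 35 with no filter, 22 and 22 with DESeq2, and 3 to 5 and 0 to 5 when a library was left out. The log2 fold change of miR-149-5p was -0.78 and that of miR-129-5p -0.82 with the authors' totals; leaving out a library gave -1.76 to -1.20 and -1.90 to -1.39. For miR-129-1-3p and miR-129-2-3p it was -1.34 and -1.54 with no filter and -1.31 and -1.51 with DESeq2, past the threshold in all 4 cases. The miR-149 log2 arm ratio was 8.33 in model and 9.00 in control libraries with 0.5 counts added to each arm. The mean log2 ratio of miR-129-1-3p to miR-129-2-3p was 0.30 to 0.41 without a library. With the authors' totals the log2 fold changes turned positive for miR-153-3p (0.39), miR-375-3p (0.085), miR-148a-3p (0.30), miR-150-5p (0.48), miR-200c-3p (0.47) and miR-451a (0.35), and that of miR-150-5p ran from -0.93 to 0.066 when a library was left out. The acinar, epithelial and erythroid medians turned positive as well (0.41, 0.52 and 0.53). The median of all tested rows rose to 0.79 with the authors' totals, above each of these values. A change of scaling shifts all rows by nearly the same amount, as given above. These turns to positive values with the authors' totals therefore come with the scaling. Depth limits miR-149-3p and the antisense rows.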
